A study of Mus musculus with 2 samples.

Results

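The Myt family of zinc finger repressors has 3 genes in the mouse, Myt1l, Myt1 and St18, out of 21938 protein-coding genes of the GENCODE M21 annotation that were measured. They were described by the sites of open chromatin in and around them in newborn midbrain. Every peak of DNase I cutting was taken that lay in the gene body or within 10 kb on either side, a stretch called the domain here, and peaks within 500 bp of an annotated transcription start site (TSS) were taken as promoter peaks. The 3 domains held 128 of 228203 peaks of replicate 1 and 82 of 122593 peaks of replicate 2. Merging overlapping or touching peaks of the 2 libraries gave 159 union regions out of 260777 in the genome, and 45 of them, out of 74833, were replicated, that is, they held a peak of each library. Since the genes were selected on these peaks, their peak counts are given as a description, without a test.

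DNase-seq finds open chromatin from where the enzyme DNase I cuts the DNA of isolated nuclei. The tissue was midbrain of healthy newborn mice (0 days) of the strain B6NCrl, males and females pooled, in 1 group of 2 biological replicates with no other condition, and the protocol the labels name is one written for nuclei of cultured cells, with a crosslinking step. Both libraries trace to 1 donor entry in the labels, so the difference between them may be partly technical. The libraries were bulk tissue, in which a site open in more cells and a site more open in each cell cannot be told apart.

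Replicate 1 had the longer list, and replicate 2 had 0.537 times as many peaks. The authors' signal per peak, a whole number, had a median of 44 in replicate 1 (range 2 to 149) and of 18 in replicate 2 (range 1 to 125). It was not scaled between libraries, so signals are compared only within a library, where a percentile gives the share of the library's peaks with a lower signal. Read depth is unknown. Of all union regions 28.7% were replicated, and 64.6% of replicate 2 peaks and 33.5% of replicate 1 peaks met a peak of the other library. As a check of the tissue, replicated promoter peaks were present at 4 of 4 neuronal genes (Rbfox3, Tubb3, Snap25 and Map2) and 3 of 3 midbrain genes (En1, En2 and Otx2), and at 0 of 2 liver genes (Alb and Apoa1) and 0 of 2 microglial genes (Aif1 and C1qa). Since 61% of all protein-coding genes had one, these few genes are a weak check. Replicated regions anywhere in the domain numbered 8 to 34 for the neuronal genes and 1 to 2 for the midbrain genes. They numbered 0 to 2 for the liver genes and 2 to 5 for the microglial genes, so the domain counts do not set the midbrain genes apart.

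Myt proteins carry clusters of CCHC zinc fingers that bind the motif AAAGTTT and recruit corepressors with histone deacetylases. Myt1l is found in nearly all postmitotic neurons, where it holds non-neuronal genes down, and it can help to turn fibroblasts into neurons. Myt1 acts earlier, in neural progenitors, where it counters Notch signalling, and is also present in the oligodendrocyte lineage and in endocrine cells of the pancreas. St18, also called Myt3, is found in restricted sets of neurons and in pancreatic islets.

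The 4 regions printed here carry the comparison between the genes. They are the replicated promoter regions of Myt1l and Myt1, the region upstream of Myt1 that shares a stretch of sequence with the Myt1l promoter, and the strongest replicated region of the family. The letters are the plus strand of mm10 from RefSeq, read 5′ to 3′, which is the coding direction of all 3 genes, and capitals mark exact matches, anywhere in the region, to the motifs named after them.
Myt1l promoter, chr12:29528076-29528285: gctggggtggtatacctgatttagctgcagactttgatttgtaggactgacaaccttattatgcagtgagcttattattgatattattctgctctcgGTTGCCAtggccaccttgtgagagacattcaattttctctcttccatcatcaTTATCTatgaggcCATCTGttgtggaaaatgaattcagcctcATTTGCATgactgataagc
Myt1l intron 18, chr12:29872516-29872665: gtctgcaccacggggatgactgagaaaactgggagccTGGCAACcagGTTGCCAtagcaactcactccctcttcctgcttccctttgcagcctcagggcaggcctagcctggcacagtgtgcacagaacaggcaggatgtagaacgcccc
Myt1 upstream region, chr2:181759116-181759325: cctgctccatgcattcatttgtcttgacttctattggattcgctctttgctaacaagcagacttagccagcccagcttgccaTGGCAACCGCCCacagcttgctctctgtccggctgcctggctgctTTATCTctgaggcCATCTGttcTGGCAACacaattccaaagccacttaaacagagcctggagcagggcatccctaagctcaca
Myt1 promoter, chr2:181766696-181766925: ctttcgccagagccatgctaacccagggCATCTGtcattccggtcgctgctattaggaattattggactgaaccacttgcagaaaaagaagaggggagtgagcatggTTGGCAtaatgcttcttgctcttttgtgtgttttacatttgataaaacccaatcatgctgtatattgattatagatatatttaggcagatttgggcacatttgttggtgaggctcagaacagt
In the Myt1l promoter the first match is the RFX motif, GTTGCCA. It is followed, all on the minus strand, by the motif of the GATA factors, the bHLH motif CAGATG and the POU motif ATGCAAAT. In the intron 18 region they are 2 RFX motifs on opposite strands. In the region upstream of Myt1 an RFX motif overlaps the SP motif GGGCGG, and the same GATA and bHLH motifs and another RFX motif follow. In the Myt1 promoter they are the bHLH motif and the NFI motif TTGGCA.

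Myt1l (ENSMUSG00000061911.15, chr12:29528384-29923213, plus strand, 25 exons in its longest transcript) was the gene of the family with the most open sites. Its domain of 414.83 kb held 85 peaks of replicate 1 and 67 of replicate 2, or 20.5 and 16.2 per 100 kb. Of these, 37 replicate 1 peaks (43.5%) and 36 replicate 2 peaks (53.7%) met a peak of the other library, and they made 36 replicated regions among 111 union regions. A further 47 regions were found in replicate 1 alone and 28 in replicate 2 alone. Shared peaks were the stronger ones: the replicated regions had median signals of 84.5 in replicate 1 (range 31 to 130) and 29 in replicate 2 (10 to 67), while peaks of 1 library alone had medians of 49 and 13. Over the genome, replicated regions had median signals of 67 and 22 away from TSSs and of 96 and 38 at promoters.

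**Figure D1:**
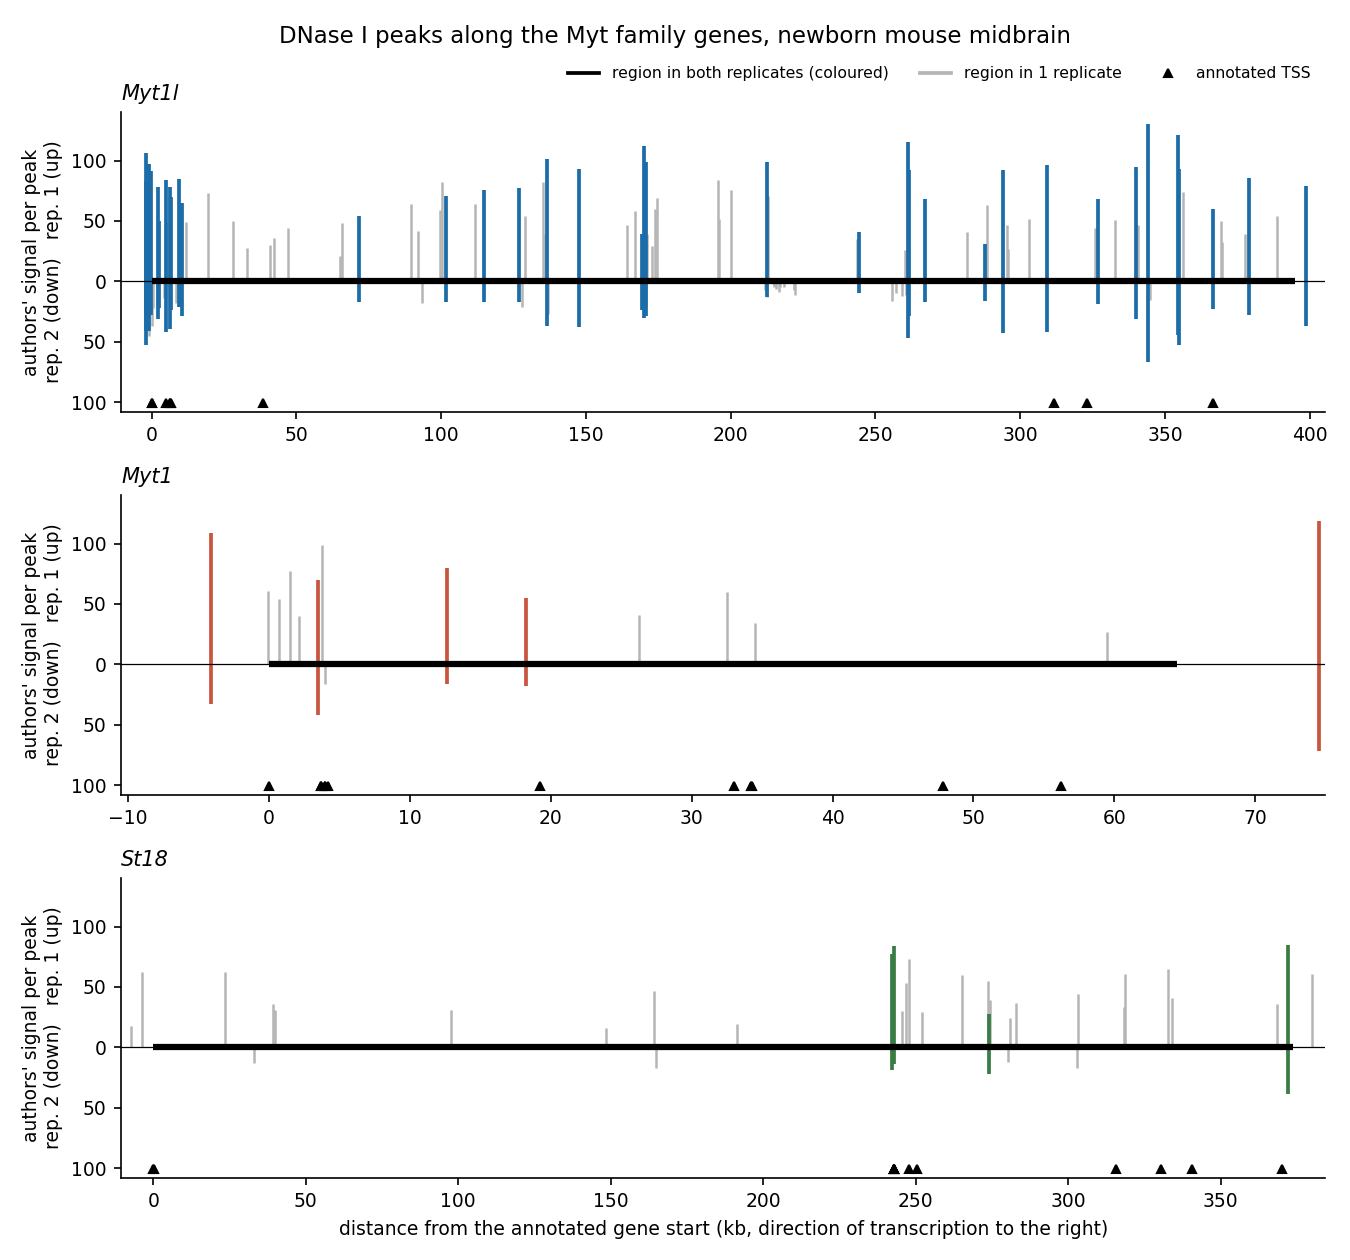
Peaks along Myt1l, Myt1 and St18, by distance from the annotated gene start in kb (x axis). Lines upward give the authors' signal in replicate 1 and lines downward in replicate 2, coloured where the region is in both libraries and grey where it is in 1; the black bar is the gene body and triangles are annotated TSSs. Myt1l has 36 coloured regions along its whole length, Myt1 has 5 and St18 has 4, none of them in the first 242.1 kb of the gene.

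At the 5′ end of Myt1l, the TSS of the full-length transcripts Myt1l-202 and Myt1l-205 had a replicated region centred at -203 bp, with signal 91 in replicate 1 (percentile 89.4) and 28 in replicate 2 (percentile 72.7). These percentiles are among all peaks of a library. Both signals were under the medians of 96 and 38 for all replicated promoter regions. The promoter region was part of a dense group: 11 of the 36 replicated regions lay within 11 kb of the gene start. Before the promoter lay 3 more, of which the farthest, chr12:29526276-29526445, was among the strongest of the gene with 106 (percentile 94.2) and 53 (percentile 92.5). The next had 83 and 41, and the nearest to the promoter, chr12:29527536-29527745, had 97 and 41. Replicate 2 alone also had a peak of 45 at chr12:29527336-29527485, its strongest unshared peak in the domain, and one of 37 in the first exon.

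Intron 1 of Myt1l held 7 replicated regions in 37.9 kb, or 18.5 per 100 kb, beside 3 in the 77.5 kb of intron 2 and 6 in the 86.5 kb of intron 3. Several lay at starts of other transcripts. The region at 29533216-29533445 (signals 84 and 42) lay at the start of the retained-intron transcript Myt1l-210, and those at 29534716-29534985 (78 and 39) and 29535096-29535345 (70 and 24) at the starts of Myt1l-207, Myt1l-201 and Myt1l-208, where their midpoints fall in untranslated exons of Myt1l-201. A further pair, with signals 78 and 31 and signals 50 and 22, counts as promoter regions only through Gm20208, a noncoding gene on the opposite strand that overlaps the start of Myt1l. The midpoint of the region at 29534716-29534985 also lies nearer to a start of Gm20208 than to one of Myt1l. Near the far end, Myt1l-209, a protein-coding transcript that begins 366.73 kb into the gene, had a replicated region with signals 60 and 23. In all, 7 of the 10 annotated TSSs of Myt1l had a replicated region within 500 bp. The other 3, of Myt1l-203, Myt1l-204 and Myt1l-211, had no peak of either library there.

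The remaining replicated regions of Myt1l ran through the whole gene. Cut into 4 equal stretches of 98.7 kb, it held 8, 8, 7 and 8 replicated regions from start to end, and the longest stretch without one was 61.4 kb, from 10.3 to 71.7 kb into the gene. By position, 26 of the 36 lay in introns, 5 in exons of some transcript, 4 in the upstream flank and 1 in the downstream flank, and 29 were distal, that is, over 500 bp from any TSS of any gene. Among the exonic ones 1, chr12:29855136-29855305, lay in a coding exon, with signals 68 and 19.

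Of the 5 distal regions that ranked highest over both libraries, 3 lay in intron 18. The strongest of all was chr12:29872516-29872665, printed above, with signal 130 in replicate 1 (percentile 98.3) and 67 in replicate 2 (percentile 97.0). The other 2 were neighbours, chr12:29882956-29883125 with 121 and 44 and chr12:29883296-29883485 with 93 and 53. Between the upstream region with 106 and 53, which ranked second, and these came chr12:29789436-29789625 in intron 8, with 115 and 47. The weakest replicated regions were at 29816296-29816465 in replicate 1 (31 and 16) and at 29772456-29772645 in replicate 2 (41 and 10). In replicate 1, 13 of the 36 regions were in the top decile of the library's peaks. In replicate 2 it was 3, all of which were in the top decile of both. The same shares over all replicated regions were not counted, so nothing is read from these counts.

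The third of the 4 equal stretches of Myt1l differed between the libraries. Replicate 2 alone had 16 regions there, beside 6, 3 and 1 in the others. A run of 8 of its peaks stood in 3.71 kb of intron 4 (214.7 to 218.4 kb into the gene), in which replicate 1 had 0 peaks. Their signals were 2 to 9, with a median of 5, at percentiles from 0.0889 to 13.5 of the library, so they were among its weakest peaks. Outside the run the domain had 59 peaks of replicate 2 and 85 of replicate 1, a ratio of 0.694 beside 0.537 over the genome, and the 36 replicated regions were as before, since none lay in the run. The strongest unshared peak of replicate 1 in the gene had signal 84 (percentile 86.3), 195.467 kb into it in intron 3.

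Myt1 (ENSMUSG00000010505.16, chr2:181763332-181827797, plus strand, 23 exons) is the shortest of the 3 genes, with a domain of 84.466 kb. It held 14 peaks of replicate 1 and 6 of replicate 2. All but 1 of the replicate 2 peaks were shared (5, or 83.3%), as were 5 of the 14 replicate 1 peaks (35.7%), and they made 5 replicated regions among 15 union regions. They were a site upstream, a site at internal starts, 2 sites in intron 1 and the promoter of the next gene.

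Upstream of Myt1, chr2:181759116-181759325 was centred at -4.11 kb from the gene start, with signal 109 in replicate 1 (percentile 94.9) and 33 in replicate 2 (percentile 78.9). The annotated 5′ end itself, the start of Myt1-201, had a peak of 61 in replicate 1 (percentile 70.6) and none in replicate 2, whose nearest peak was 3444 bp away. The replicated promoter region of Myt1, chr2:181766696-181766925, lay instead at the internal starts, centred at -218 bp from that of the transcript Myt1-210. Its signals were 70 (percentile 77.8) and 42 (percentile 86.4), beside medians of 96 and 38 for all replicated promoter regions. Just past it the libraries placed peaks that did not meet: replicate 1 had one of 99 at chr2:181767036-181767185, its strongest unshared peak in the gene, and replicate 2 one of 16 at chr2:181767256-181767405. Of the 12 TSSs of Myt1, 9 had a replicate 1 peak within 500 bp, 5 had a replicate 2 peak and 4 had a replicated region.

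In intron 1 of Myt1, which is 19.1 kb long, 2 more replicated regions followed, with signals 80 and 16 at 181775856-181776005 and 55 and 18 at 181781496-181781685. From 18.2 kb to the end of the gene, a stretch of 46.3 kb, no region was replicated, and replicate 1 alone had 4 peaks with signals from 27 to 60. The strongest region of the domain, 119 and 72 (percentiles 96.6 and 98.2) at 181837776-181837925, belongs to another gene: it is the promoter of Pcmtd2, centred at -3 bp from its TSS, and it only just entered the 10 kb flank, 9.98 kb past the end of Myt1. The next region outside the flank, 10.6 kb from the gene, was also replicated, with 39 and 18. Elsewhere the nearest regions outside the domains lay 12.1 kb upstream of Myt1, 29.7 kb upstream and 14.7 kb downstream of Myt1l (the latter with 89 and 33), and 45.6 kb upstream and 67.9 kb downstream of St18.

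St18 (ENSMUSG00000033740.17, chr1:6487231-6860940, plus strand, 24 exons) is nearly as long as Myt1l, with a domain of 393.71 kb, but had few replicated sites. Its domain held 29 peaks of replicate 1 and 9 of replicate 2, or 7.37 and 2.29 per 100 kb. Only 4 of the replicate 1 peaks (13.8%) and 5 of the replicate 2 peaks (55.6%) were shared, and they made 4 replicated regions among 33 union regions. The 25 regions of replicate 1 alone had signals up to 73, with a median of 39 per peak, and the 4 of replicate 2 alone up to 17.

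The annotated 5′ end of St18 had no peak near it. The nearest peak to the first TSS was 3486 bp away in replicate 1 and 32925 bp away in replicate 2, and the first 242.1 kb of the gene, most of it intron 2, held no replicated region. Each library alone had scattered peaks there, those of replicate 2 with signals of 13 and 17. Over 4 equal stretches of the gene, of 93.4 kb each, replicate 1 alone had 3, 3, 8 and 8 regions while replicate 2 alone had 1 in each.

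The replicated promoter region of St18 lay inside the gene, at a group of 5 protein-coding starts that begins 242.82 kb from the annotated 5′ end (St18-201, St18-203, St18-206, St18-210 and St18-212). Centred at -110 bp from the first of them, chr1:6729856-6730025 had signal 84 in replicate 1 and 14 in replicate 2. Both were under the medians of 96 and 38 for all replicated promoter regions. The libraries ranked this region differently, at percentile 86.3 in replicate 1 and 32.3 in replicate 2. A neighbour at -610 bp, chr1:6729336-6729545, had 77 and 19. St18-207, which starts 247.639 kb into the gene, had a peak of 73 in replicate 1 alone, the strongest unshared peak of the gene. Of the 13 TSSs of St18, 6 had a replicate 1 peak within 500 bp and 5 had a replicate 2 peak, all 5 of them in the group at 242.82 kb.

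The other 2 replicated regions of St18 were a weak one in intron 4, chr1:6760976-6761225, with 28 (percentile 14.0) and 22 (percentile 61.1), and a stronger one in the untranslated part of the last exon, chr1:6859116-6859265, with 85 (percentile 86.8) and 39 (percentile 84.3). The region in the last exon was the highest of the gene in both libraries.

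**Figure D2:**
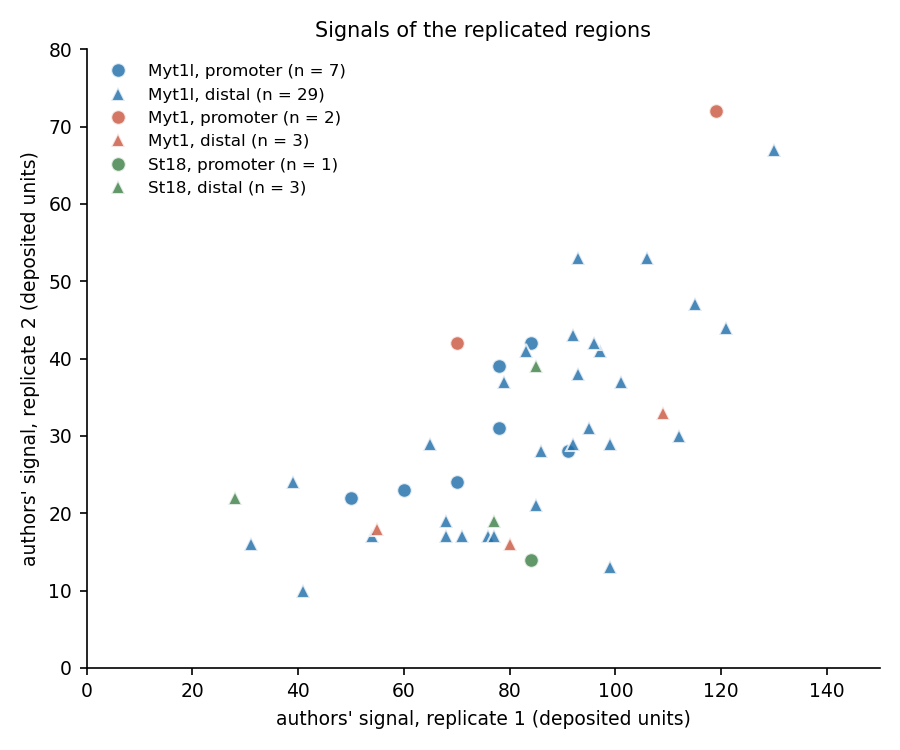
The authors' signal of each replicated region in replicate 1 (x axis) and replicate 2 (y axis), in deposited units that are not scaled between libraries; circles are promoter regions and triangles distal ones. The Myt1l region in intron 18 (130 and 67) and the Pcmtd2 promoter in the Myt1 domain (119 and 72) are at the top right, and the St18 promoter (84 and 14) is low in replicate 2.

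All 3 genes thus had a replicated region within 500 bp of at least 1 TSS, as did 61% of all protein-coding genes (13391 of 21938). Peaks of replicate 1 alone would give 3 of 3 beside 68.9% of genes, and peaks of replicate 2 alone 3 of 3 beside 62.6%. Counted only at the annotated 5′ end, the share was 1 of 3, Myt1l, beside 55.4%. All 3 domains held at least 1 replicated region, as did 78.7% of domains. The genes were chosen by these peaks, and nothing is read from their shares.

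Counts of replicated regions rise with the length of a gene, so each was set beside genes whose domain length was within 1.5-fold of its own. Over all genes the median was 3 replicated regions per domain, in a median domain of 37.4 kb, or 4.99 per 100 kb. Myt1l, with 36, had more than 99.9% of all genes, and 20 genes had more. Among 562 genes of similar length the median was 10 (quartiles 6 and 15), 98.9% had fewer than Myt1l and 6 had more. Myt1, with 5, stood near the middle of 4306 genes of similar length, whose median was 4 (quartiles 2 and 6) and of which 60.7% had fewer. St18, with 4, stood low among 586 genes of similar length with a median of 10 (quartiles 6 and 14): 10.8% had fewer and 493 had more. Per 100 kb the counts were 8.68 for Myt1l, 5.92 for Myt1 and 1.02 for St18, and 69.9%, 55.5% and 22.5% of all genes had a lower density.

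The genes most like each member were taken as those within 1.5-fold in domain length with the closest count of replicated regions. For Myt1l they were Frmd4a (37 regions in 616 kb), Nfib, a nuclear factor I transcription factor (34 in 436 kb), and Rbfox3, which encodes the neuronal marker NeuN (34 in 442 kb). For Myt1 they were Zgrf1, Ift81 and Dicer1, with 5 each, and for St18 Mbd5, Dnah7c and Gtdc1, with 4 each. All 9 had a replicated promoter region. The likeness is of length and count alone.

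**Figure D3:**
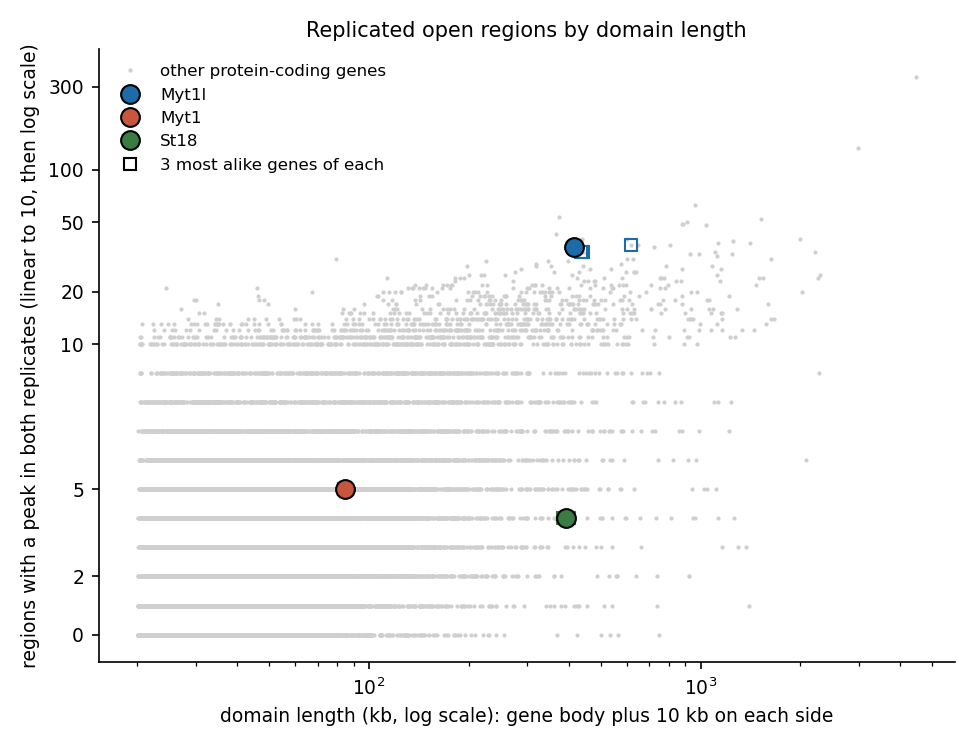
Replicated regions per domain (y axis, linear to 10 and logarithmic above) against domain length in kb (x axis, log scale) for all protein-coding genes, with the 3 Myt genes as large circles and the 3 genes most like each as squares. Myt1l (36) lies near the upper edge of genes of its length and St18 (4), nearly as long, near the lower edge.

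Hotspots, the wider intervals of raised cutting that the authors called in each library, covered the largest share of the domain in Myt1l and the smallest in St18. In the Myt1l domain 75 hotspots of replicate 1 covered 28.3 kb (6.83% of the domain) and 61 of replicate 2 covered 18.8 kb (4.54%), beside 2.41% and 1.16% of the genome. In the Myt1 domain 13 covered 4.26 kb (5.05%) and 6 covered 1.58 kb (1.88%). In the longer St18 domain 28 covered 7.92 kb (2.01%) and 10 covered 1.79 kb (0.453%), more in number and length than in Myt1, and both shares were under that of the genome. Both libraries covered 13.5 kb together in Myt1l, 1.58 kb in Myt1 and 1.33 kb in St18. Of the Myt1l hotspots 39 of 75 in replicate 1 and 18 of 61 in replicate 2 reached 100, the top of the authors' −log10 q value. In Myt1 it was 7 of 13 and 2 of 6, and in St18 12 of 28 and 1 of 10. The share over all hotspots was not counted, so nothing is read from these counts. The 7 of Myt1 include its widest hotspot in replicate 1, of 1172 bp, which spans the promoter of Pcmtd2. The widest of Myt1l in replicate 1, 1290 bp, began 5.78 kb into the gene and spanned the start of Myt1l-201. The widest of St18, 1017 and 514 bp, began 242.0 and 242.1 kb into the gene, before the internal starts at 242.82 kb. That of replicate 2 ended before these starts.

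The GC share of the promoter regions, which the choice of the genes did not use, ranged widely in Myt1l and was low at the region nearest the first replicated start of each gene. The replicated promoter regions over the genome had a median of 62.7% G and C in the 150 bp about their midpoint, and a CpG ratio (observed over expected) of 0.753. The Myt1l promoter at the 5′ end had 38.7% and a ratio of 0.179, and 0.381% of the 22315 replicated promoter regions had a lower GC share. The Myt1 promoter had 36.7% and 0.420, with 0.193% lower in GC. The St18 promoter had 42.7% and 0.300, with 1.68% lower in GC. The other promoter regions of Myt1l lay higher. Those at the starts of Myt1l-210 and Myt1l-201 had 64.7% and 66.0%, with 55.4% and 60.3% of promoter regions lower in GC, and those at Myt1l-208 and Myt1l-209 had 50.7% and 48.7%, with 10.9% and 7.38% lower. The region with 66.0% lies nearer to a start of Gm20208 than to that of Myt1l-201. The pair that counts through Gm20208 had 50% and 47.3%, with 9.63% and 5.45% lower, and the Pcmtd2 promoter had 61.3% and a CpG ratio of 0.861, with 42.7% lower in GC. The 36 replicated regions of Myt1l together, 29 distal and 7 at promoters, had a median GC of 52.0%. Over the genome it was 50.7% for distal and 62.7% for promoter replicated regions, and a median for the mixed set was not taken.

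To count motifs over regions of unequal width, exact matches on both strands were searched only in the 150 bp about each midpoint. The POU match printed in the Myt1l promoter and the bHLH match printed in the Myt1 promoter lie outside this window and are not counted here. The Myt motif AAAGTTT was in 1 of the 10 promoter regions of the domains, beside 0.865% of all replicated promoter regions, and in 0 of the 35 distal ones, beside 1.49%. The bHLH motif CAGATG, of the kind that proneural factors bind, was in 2 of 10 promoter regions, that of Myt1l among them, beside 6.80%, and in 5 of 35 distal regions, beside 15.2%. The other bHLH motif, CAGCTG, was in 0 of 10 and 5 of 35, beside 9.50% and 14.1%. The POU motif ATGCAAAT was in 1 of 10 and 1 of 35, beside 0.798% and 1.06%. The motif TTCAGCACC, part of the site of the repressor Rest, was in 1 promoter region, that at 29530496-29530745 in intron 1 of Myt1l, beside 0.314%. The SP motif GGGCGG, frequent in GC-rich promoters, was in 2 of 10, beside 42.7%. The other motifs were also in few regions, some above and some below their share over all regions. The RFX motif GTTGCCA was in 1 of 10 promoter regions and 3 of 35 distal ones, beside 3.26% and 6.60% of all. The NFI motif TTGGCA was in 1 of 10 and 4 of 35, beside 6.70% and 13.9%. The SOX motif ACAATGG was in 1 of 10 and 0 of 35, beside 1.07% and 2.08%. The motif of the GATA factors, spelled AGATAA, was in 1 of 10 and 3 of 35, beside 2.03% and 5.41%. Among distal regions the AP-1 motif TGANTCA was in 4 of 35 (4.64% of all), the core of the CTCF motif, AGGGGGC, in 3 (8.0%), the homeobox motif TAATTA in 2 (3.98%), the SP motif in 1 (6.97%) and the NRF1 motif GCATGCGC in 1 (0.752%), and apart from the SP motif these were in 0 of the 10 promoter regions. The CRE motif TGACGTCA, the ETS motif CCGGAAGT and the MEF2 motif TAAAAATA were in 0 of the 45 regions. With so few regions these counts are a description, and a match is not a bound site.

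The replicated regions of the 3 genes were also aligned with each other, a comparison added after the data had been seen. Each pair of regions from different genes was aligned locally on both strands, in 344 pairs, with a median best score of 18 and a 95th percentile of 23. The Myt1l promoter and the region upstream of Myt1 had the highest score of all pairs, 42, over a stretch in which 30 of 36 bases (83.3%) were identical without a gap. Capitals mark the identical bases.
Myt1l, chr12:29528225-29528260: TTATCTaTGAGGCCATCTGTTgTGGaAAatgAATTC
Myt1, chr2:181759243-181759278: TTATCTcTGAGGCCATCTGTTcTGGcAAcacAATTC
Both stretches hold CATCTG, the bHLH motif on the minus strand. Their longest identical run, 14 bases, was found in 4 of all 74833 replicated regions (0.00535%), both of these among them. The run was picked from the best of the 344 pairs, so its rarity is no test of a shared element. The same part of the Myt1l promoter, chr12:29528235-29528282, aligned with the St18 promoter at the next highest score, 34. There 40 of 53 columns were identical, with 5 gaps. Whether these stretches act in midbrain was not measured.

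The other genes of the pathway were read at their promoters. A list of corepressors and partners of the Myt factors, with the repressor Rest set beside them, had replicated promoter regions at 8 of 8 genes, beside 61% of all genes. They were the scaffolds Sin3a (signals 146 and 90) and Sin3b (113 and 48), the histone deacetylases Hdac1 (132 and 67) and Hdac2 (126 and 57), the histone demethylase Kdm1a (121 and 65) with its partner Rcor1 (142 and 81), the nuclear receptor corepressor Ncor1 (112 and 47) and Rest (61 and 34), a repressor of neuronal genes outside neurons. The Rest promoter was the weakest of the 8 in both libraries. Among neuronal transcription factors it was 2 of 4, Pou3f2 (133 and 72) and Neurod1 (114 and 39). Neurog1 and Neurog2 had promoter peaks in replicate 1 alone, of 56 and 69. Among genes reported as repressed by Myt factors, all of the Notch pathway or of the Id family of bHLH inhibitors, it was 5 of 6, namely Hes1 (119 and 43), Hes5 (119 and 45), Rbpj (142 and 70), Id1 (111 and 38) and Id3 (114 and 52), while Notch1 had a peak of 104 in replicate 1 alone. These 3 lists were read with results of the libraries already known.

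**Figure D4:**
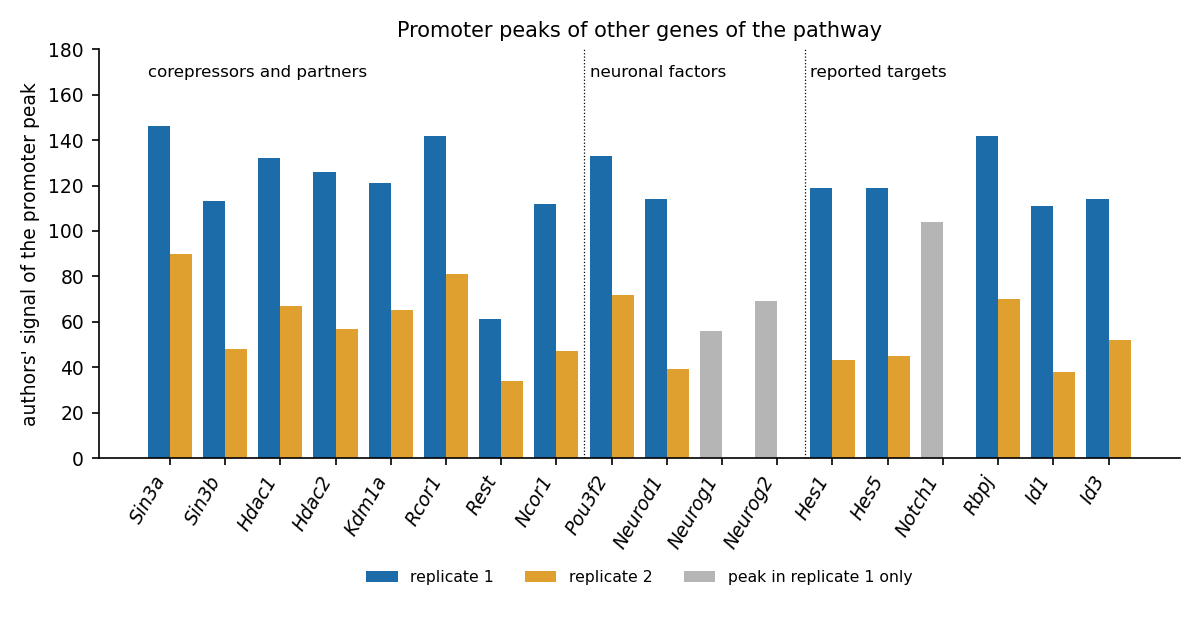
The authors' signal of the highest-ranked promoter region (y axis) in replicate 1 and replicate 2 for 18 genes that work with, act beside or are reported as repressed by Myt factors; grey bars are peaks in replicate 1 alone. All 8 genes of the first list, corepressors and partners with Rest, have both bars, and Neurog1, Neurog2 and Notch1 have a bar of replicate 1 alone.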

How the data were processed

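DNase-seq libraries of newborn midbrain were analysed from interval lists that the authors deposited for each library on mm10, per the labels, and not on pooled reads. Each peak is 150 bp wide and carries a signal deposited by the authors as a whole number. What it measures, the aligner and the caller were not given in the sources used here. Hotspots have a deposited −log10 q value, topped at 100. Of 228440 and 122838 deposited peaks, 215 and 221 off chromosomes 1 to 19, X and Y and 22 and 24 repeated positions were set aside. No read totals were given, so depth and counting error are unknown, and signals were used only within a library.

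Peaks of both libraries that overlapped by at least 1 bp or touched were joined into union regions, called replicated if both libraries had a peak in them. Its signal in a library is that of its strongest peak. A region was a promoter region when its midpoint lay within 500 bp of a TSS of any gene. Genes came from GENCODE M21 and sequence from RefSeq. Local alignments scored 2 for a match, -3 for a mismatch, -6 for opening and -2 for extending a gap. Python 3.11.15, pandas 2.3.3, numpy 2.4.6 and matplotlib 3.10.9 were used, and counting was tested on simulated intervals.

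The single group allows no test, and the selection used the peaks. The genes, lists, motifs and rules were chosen with earlier results of these data known. Named regions were, for each gene, the replicated promoter regions, the 5 highest-ranked distal replicated regions and the strongest peak of each library alone. Some items of these lists are not reported here. Other regions were singled out for their position after their values were seen. Alternatives covered overlap, signal, list length, hotspots, domain, promoter window and each library alone.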

Additional observations from a re-analysis of the deposited data

How the results depend on the processing

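Myt1l kept the highest count of replicated regions of the 3 genes under every alternative listed here. Myt1l had 36, and 27 to 40 under the alternatives that use both libraries: 28 with a reciprocal overlap of 50%, 27 with the stronger 50% of each list, 33 with lists of equal length, 31 with hotspots, 31 in the gene body alone and 40 with flanks of 50 kb. Taking 1 library alone, without replicate 1 or without replicate 2, gave 67 and 85 for Myt1l, 6 and 14 for Myt1, and 9 and 29 for St18, because no second peak was required, and St18 then exceeded Myt1. Myt1 had 3 in the gene body alone, fewer than the 4 of St18, and 11 with flanks of 50 kb; with a reciprocal overlap of 50% both genes had 4 and with hotspots both had 5. St18 had 2 with the stronger 50% of each list and 3 with lists of equal length. A replicated promoter at the 5′ end of the gene only was present in 1 of 3 genes. At any TSS it was 2 of 3 with a reciprocal overlap of 50% or a window of 100 bp, where Myt1 was lost, and with the stronger 50%, where St18 was lost, and 3 of 3 otherwise. Leaving out the run of weak replicate 2 peaks in Myt1l, chosen after seeing the data, left 36. That outcome was fixed in advance, since the run held 0 replicated regions. Over all genes the promoter count was 12159 to 15105. No paired analysis was possible because there is 1 group. Where depth is unknown, a site found in 1 library alone cannot be told from one missed in the other.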
